A study of Mus musculus with 6 samples.

Results

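Lipid droplets are the stores of triglyceride and sterol ester inside a cell, and the 10 genes described here encode proteins that sit on droplets or build them. They are the perilipin genes Plin2, Plin4 and Plin5, the CIDE genes Cidea, Cideb and Cidec, the droplet dehydrogenase genes Hsd17b11 and Hsd17b13, and the fat storage-inducing transmembrane protein genes Fitm1 and Fitm2. They were chosen by symbol, and all 10 were found among the 24341 gene symbols of the deposited liver table. The study took poly(A) RNA from 6 mouse livers of the C57BL/6 background, each from a mouse kept on regular chow. Of these, 3 were controls of the genotype Prkciflox/flox, and 3 were Prkciflox/floxAlbCre, which carry the same floxed alleles with a Cre recombinase driven by the albumin promoter. This promoter is active in hepatocytes, and which cells of these livers had recombined was not measured here. These hepatocyte knockouts of the labels are called AlbCre livers here. Prkci encodes the atypical protein kinase C lambda/iota, and the title of the series concerns autophagy, oxidative phosphorylation and liver cancer. All mice were 30 weeks old by the sample labels and 28 weeks by the design text. The livers are numbered 1 to 3 in each group; whether each is from a separate animal is not stated, so p-values cover only the spread among these livers.

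Perilipins coat the droplet and govern the access of lipases to the stored fat. CIDE proteins pass lipid from one droplet to another, so that droplets grow, and in hepatocytes CIDEB also takes part in loading lipid onto secreted lipoproteins. FITM proteins lie in the endoplasmic reticulum and help droplets to bud from it. In mouse liver Plin2 is the main perilipin gene, whereas Cidec, Cidea and Plin4 are best known from fat tissue and are reported in fatty livers.

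The libraries held an estimated 14780000 to 17620000 reads, and the highest total belonged to AlbCre replicate 1. Values are in FPKM, which divides the fragments of a gene by its length and by the library total, so levels can be set against each other between genes. For a transcript of 2000 bases, a single read was worth between 0.0315 and 0.0376 FPKM. Of 12 hepatocyte markers, 11 were found in the table by symbol, all but Tf, for which other symbols were not searched. Each of the 11 was at 1 FPKM or more in at least 1 library. Their summed levels were 37745 to 57049 FPKM in the controls and 28887 to 44923 FPKM in the AlbCre livers. Alb, which is not among them, was listed at 0 throughout, which shows that a 0 in this table need not mean a silent gene. Prkci stood at 5.57, 3.65 and 4.44 FPKM (controls) and at 5.70, 5.26 and 4.42 FPKM (AlbCre livers) (log2 difference 0.15, SE 0.17, limma with Benjamini-Hochberg adjusted p = 0.813). The groups overlapped. The sources used here do not say which part of the gene is deleted, so the labels could not be checked on it and each direction below rests on the livers as labelled. In a piece of whole liver, fewer cells of a type and less RNA per cell cannot be told apart.

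Promoter windows are shown for Plin2, the most abundant perilipin gene, for the neighbours Plin4 and Plin5, whose levels moved most alike, and for Cidec, whose level varied most. The sequences are RefSeq's for GRCm38.p6 and run 5′ to 3′ towards the start of the gene. Bases that GENCODE M21 places in an exon were left out, and capitals mark matches to the motifs described after them.
Plin2, chr4:86670061-86670309, minus strand: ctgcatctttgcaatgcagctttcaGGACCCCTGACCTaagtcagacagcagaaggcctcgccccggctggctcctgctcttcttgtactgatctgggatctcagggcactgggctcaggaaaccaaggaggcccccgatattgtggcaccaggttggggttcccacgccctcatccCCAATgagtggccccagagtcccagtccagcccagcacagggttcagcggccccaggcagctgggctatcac
Plin4, chr17:56109804-56110032, minus strand: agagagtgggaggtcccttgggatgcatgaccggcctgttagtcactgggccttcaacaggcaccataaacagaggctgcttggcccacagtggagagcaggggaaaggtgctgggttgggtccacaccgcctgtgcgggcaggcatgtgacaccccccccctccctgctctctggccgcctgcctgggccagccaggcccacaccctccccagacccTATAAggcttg
Plin5, chr17:56117597-56117798, minus strand: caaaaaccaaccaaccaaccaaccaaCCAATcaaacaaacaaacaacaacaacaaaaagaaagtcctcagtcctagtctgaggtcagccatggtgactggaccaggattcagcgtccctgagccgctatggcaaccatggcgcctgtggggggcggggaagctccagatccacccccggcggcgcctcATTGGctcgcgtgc
Cidec, chr6:113435761-113436010, minus strand: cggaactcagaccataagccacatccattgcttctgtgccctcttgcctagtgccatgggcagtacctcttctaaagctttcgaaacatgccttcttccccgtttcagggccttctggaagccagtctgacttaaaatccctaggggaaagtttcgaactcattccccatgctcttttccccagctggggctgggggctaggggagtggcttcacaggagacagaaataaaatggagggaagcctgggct

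RefSeq windows were found for 9 of the 10 genes, and the 250 bases before each start were searched on both strands for 4 motifs. The DR1 element, a direct repeat of AGGTCA with a spacing of 1 base that nuclear receptors such as the PPARs recognize, was allowed up to 2 mismatches and is held by 3.2% of 32851 mouse promoter windows of this length. Among the 9 genes only the Plin2 window held a match, with 2 mismatches on the opposite strand, 225 bases before the start. The letters TATAA were in the windows of Cideb, Plin4 and Plin5 and in 22.8% of all windows. In Plin4 they began 32 and in Plin5 27 bases before the start, the latter in a stretch that is not shown. The letters CCAAT were in the windows of Plin2, Plin4, Plin5 and Hsd17b11 and in 33.8% of all windows; the matches of Plin4 and Hsd17b11 lie outside what is shown. The E-box CACGTG, found in 6.0% of all windows, was in 0 of the 9 genes' windows. The motifs did not overlap each other. A match describes letters and not a bound site, and the absence of a match covers this window only.

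In control livers, Plin2 had the highest mean of the 10 genes and Plin4 and Cidec had the lowest means of the 9 tested. Mean control levels were 340.4 ± 162 FPKM for Plin2, 259 ± 25.6 FPKM for Hsd17b13, 198 ± 33.01 FPKM for Cideb and 98.1 ± 23.8 FPKM for Hsd17b11 (SD, n = 3 livers here and throughout). The ranges of Plin2 and Hsd17b13 overlapped, so their order was not set by these livers, whereas Hsd17b13, Cideb and Hsd17b11 followed each other without overlap. Plin5 at 17.3 ± 7.08 FPKM, Fitm2 at 12.4 ± 5.93 FPKM and Fitm1 at 7.93 ± 3.82 FPKM came next, and neighbours in this order overlapped. Cidec at 0.652 ± 0.513 FPKM and Plin4 at 0.622 ± 0.403 FPKM overlapped too. Cidea was listed at 0 in all 3 controls.

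None of the 9 genes tested passed the test between the groups, yet the mean of each was higher in the AlbCre livers, and for most of them the excess lay in AlbCre replicates 2 and 3. The test was limma's moderated test on log2(FPKM + 1) across the 10963 genes that reached 1 FPKM in 3 or more libraries, with Benjamini-Hochberg adjustment at 0.05. Cidea was below that filter. In the controls, Plin4 and Cidec reached 1 FPKM only in replicate 3. Both thus entered the test through the AlbCre livers, the group in which they were high, and the counts and median below include them. Over all genes tested, 1 gene was called higher (0.00912%) and 2 lower. At an unadjusted p under 0.05, 5 of the 9 droplet genes were higher (Plin4, Plin5, Cidec, Hsd17b11 and Hsd17b13) and 0 lower, where 6.34% of all genes were higher and 3.59% lower. The median log2 difference was 1.12 for the 9 genes and 0.04 for all genes tested, of which 56.1% had a higher mean. The 3 AlbCre livers all lay above the 3 controls for 3 of the 9 (Plin4, Cidec and Hsd17b13), where 10.7% of all genes tested did so. With 3 livers against 3, an exact permutation test of a single gene cannot give a two-sided p under 0.1.

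**Figure D1:**
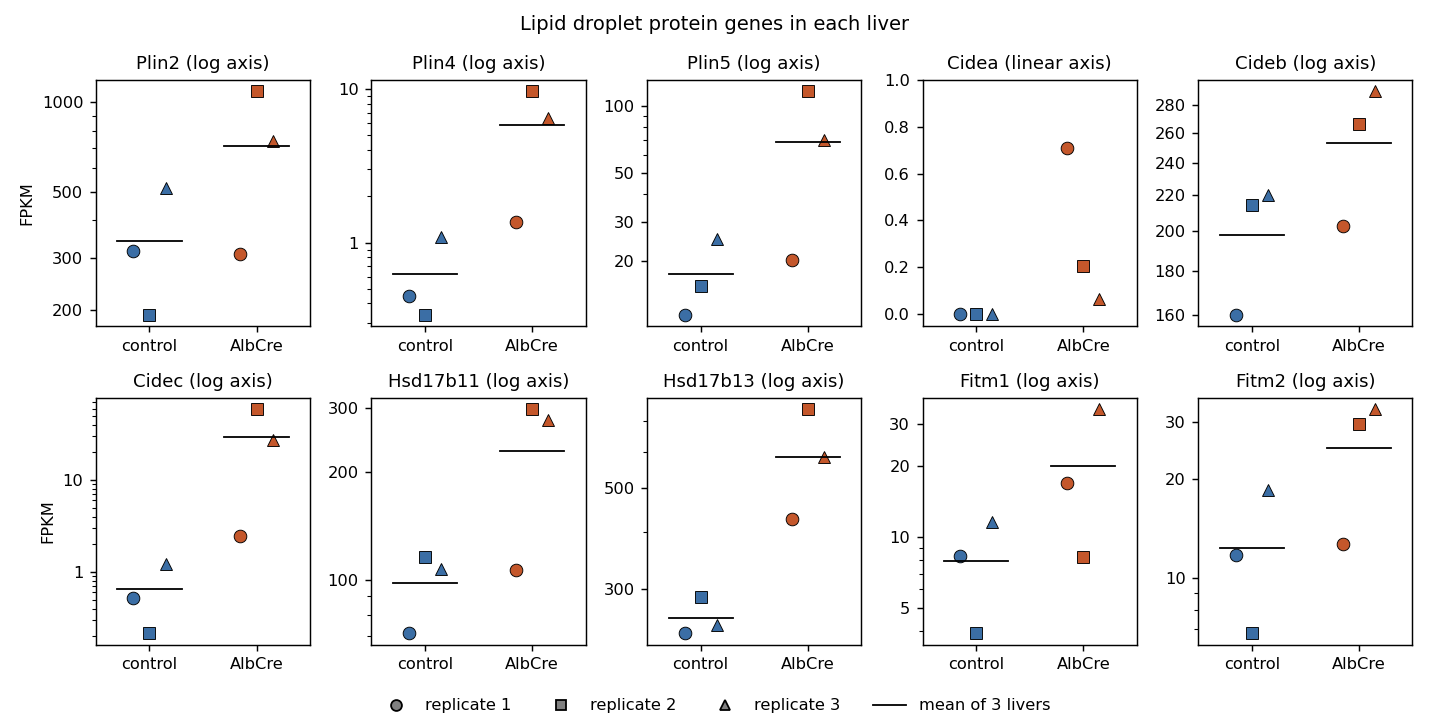
Level of each of the 10 genes in each liver, in FPKM, with controls in blue and AlbCre livers in orange; marker shapes give the replicate number, lines the mean of 3 livers, and the axis is logarithmic except for Cidea. AlbCre replicates 2 and 3 lie above all controls for Plin2, Plin4, Plin5, Cideb, Cidec, Hsd17b11, Hsd17b13 and Fitm2, while AlbCre replicate 1 lies within the control range for Plin2, Plin5, Cideb, Hsd17b11 and Fitm2.

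Among the perilipins, Plin2 stood at 315, 193 and 514 FPKM in the controls, in the order of replicates 1, 2 and 3 used throughout, and at 308, 1089 and 736 FPKM in the AlbCre livers. AlbCre replicates 2 and 3 lay above every control, and replicate 1 lay among the controls. The log2 difference was 0.99 (SE 0.54, 95% interval -0.31 to 2.30, limma adjusted p = 0.596). Plin5, which tethers droplets to mitochondria in oxidative tissues, stood at 11.4, 15.4 and 25.2 FPKM in the controls, compared with 20.1, 117 and 70.2 FPKM in the others. Again only replicates 2 and 3 lay above the controls (log2 difference 1.69, SE 0.64, limma adjusted p = 0.472). Plin4 was at 0.446, 0.337 and 1.08 FPKM in the controls, compared with 1.37, 9.75 and 6.48 FPKM in the AlbCre livers. All 3 of the latter lay above the controls, replicate 1 by a small margin, and the ratio of the means was 9.43 (log2 difference 1.85, SE 0.55, limma adjusted p = 0.392).

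Plin4 and Plin5 are neighbours on chromosome 17 of GRCm38, at 56100591 to 56109803 and 56111601 to 56117596 on the minus strand, with 1797 bases between them. On the log2(FPKM + 1) scale, their centred levels differed by a root mean square of 0.22 over the 6 libraries. This was the smallest of the 36 pairs among the 9 tested genes, and Plin2 and Fitm2 were next at 0.23. The scale understates the change of a low gene such as Plin4. In FPKM, the highest library was 28.9 times the lowest for Plin4 and 10.3 times for Plin5. The ratio of Plin4 to Plin5 was 0.0219 to 0.0431 in the controls and 0.0681 to 0.0922 in the AlbCre livers, without overlap. Plin4 overlaps an exon of Hdgfl2 on the other strand. The sources used here do not state whether counting used strand, so reads of the pair cannot be told apart. Hdgfl2, listed under its older symbol Hdgfrp2, was at 10.6, 15.0 and 15.4 FPKM in the controls and 15.6, 14.3 and 16.7 FPKM in the others. The part of its reads in the values of Plin4 was not tested.

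Cidec had the widest range of the 9 tested genes. It encodes the protein that drives droplet fusion in fat cells, and stood at 0.524, 0.215 and 1.22 FPKM in the controls, compared with 2.44, 58.7 and 27.6 FPKM in the AlbCre livers. All 3 of these lay above the controls, and replicates 2 and 3 were far above replicate 1. In rank among all gene symbols, Cidec was 10438th to 12476th in the controls, 9819th in AlbCre replicate 1, and 1241st and 2283rd in replicates 2 and 3. The ratio of the means was 45.4, and the log2 difference of 3.50 (SE 0.99, 95% interval 1.11 to 5.88) did not pass over all genes (limma adjusted p = 0.386).

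Cideb, the hepatocyte member of the family, differed far less. It was at 160.0, 214 and 219.9 FPKM in the controls and 203, 266 and 290.5 FPKM in the AlbCre livers (log2 difference 0.35, SE 0.20, limma adjusted p = 0.610). AlbCre replicates 2 and 3 lay above the controls and replicate 1 among them. The level of Cidec relative to Cideb was 0.00101 to 0.00554 in the controls and 0.0120, 0.221 and 0.0950 in AlbCre replicates 1, 2 and 3. Cideb overlaps an exon of Nop9 on the other strand, which stood at 5.03 to 6.08 FPKM in the controls and 6.21 to 7.12 FPKM in the others. Cidea, known from brown fat, was listed at 0 in each control and at 0.708, 0.205 and 0.0648 FPKM in AlbCre replicates 1, 2 and 3. On its transcript of 1115 bases these values correspond to an estimated 11.4, 2.9 and 1.0 reads, so the order of the livers differed from that of Cidec but rests on few reads.

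The droplet dehydrogenase genes had similar profiles. Hsd17b13, a hepatocyte enzyme of the droplet surface, was at 239, 288 and 250.2 FPKM in the controls and 428, 743 and 583 FPKM in the AlbCre livers. It was the droplet gene with the smallest p, and all 3 AlbCre livers, replicate 1 included, lay above the controls (log2 difference 1.14, SE 0.23, 95% interval 0.59 to 1.68, limma adjusted p = 0.278). Hsd17b11, its close relative, was at 71.1, 116 and 107 FPKM in the controls and 107, 298 and 279 FPKM in the others. Replicate 1 lay among the controls here (log2 difference 1.10, SE 0.42, limma adjusted p = 0.482). The genes lie side by side on chromosome 5, Hsd17b13 at 103955440 to 103977410 and Hsd17b11 at 103989762 to 104021919 on the minus strand, with 12351 bases between them. The ratio of Hsd17b13 to Hsd17b11 was 2.33 to 3.37 in the controls and 2.09 to 4.01 in the AlbCre livers, so it did not separate the groups.

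The FITM genes differed in which livers were high. Fitm2, the widely expressed gene of the pair, was at 11.7, 6.77 and 18.6 FPKM in the controls and 12.7, 29.7 and 32.8 FPKM in the AlbCre livers (log2 difference 0.96, SE 0.45, limma adjusted p = 0.544). Replicates 2 and 3 lay above the controls. Fitm1, best known from muscle, was at 8.34, 3.91 and 11.5 FPKM in the controls and 16.9, 8.24 and 34.5 FPKM in the others. Here replicates 1 and 3 lay above the controls and replicate 2 among them (log2 difference 1.12, SE 0.55, limma adjusted p = 0.559). The ratio of Fitm1 to Fitm2 was 0.578 to 0.711 in the controls and 1.33, 0.278 and 1.05 in AlbCre replicates 1, 2 and 3, all outside the control range but on both sides of it. Both genes overlap an antisense gene in an exon. The partner of Fitm2, 2310001K24Rik, was at 0 to 0.527 FPKM in the controls, compared with 0, 1.54 and 0.243 FPKM in AlbCre replicates 1, 2 and 3.

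Cidea, Cidec, Plin4 and Fitm1 are best known from fat or muscle, so markers of these tissues were read beside them. Of 12 skeletal muscle markers, 1 reached 1 FPKM in any library (Mylpf), and the summed level was 1.40 to 2.55 FPKM in the controls and 0.776 to 1.40 FPKM in the AlbCre livers. Of 12 adipocyte markers, 4 were listed at 0 in all libraries (Lep, Cfd, Plin1 and Slc36a2), and Adipoq was at most 0.0638 FPKM. The summed level of that list was 622 to 1243 FPKM in the controls and 92.8 to 424 FPKM in the others, most of it Car3, which hepatocytes also express. Of 8 brown fat markers, Ucp1 and Cox8b were listed at 0 throughout, and the sum was 7.76 to 13.96 FPKM against 7.30 to 11.2 FPKM. An exact 0 in this table is only a listed value, as that of Alb shows. Elovl3, of the brown fat list, was at 0.108, 2.43 and 3.47 FPKM in the controls and 0.914, 4.82 and 6.51 FPKM in the AlbCre livers. AlbCre replicates 2 and 3 lay above all controls for Elovl3, as for Cidec and Plin4. Cox7a1, the other tested gene of that list, had a lower mean in the AlbCre livers (13.6, 9.85 and 4.12 FPKM against 7.61, 2.41 and 4.56 FPKM). Adrb3, of the adipocyte list, was at 1.23 to 3.26 FPKM in the controls and 0.304 to 1.18 FPKM in the others, without overlap. Fabp4, which fat cells share with endothelial cells, was at 11.3 to 14.5 FPKM in the controls and 12.5 to 22.4 FPKM in the AlbCre livers. The part of fat cells in the values of Cidec and Plin4 was not tested.

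Differences between the groups depended on AlbCre replicate 1. With this liver left out, 5 of the 9 genes passed and were higher, where 0.711% of all genes tested were called higher. They were Cidec (log2 difference 4.69, limma adjusted p = 0.0133), Plin4 (2.49, adjusted p = 0.0229), Hsd17b13 (1.34, adjusted p = 0.0372), Plin5 (2.39, adjusted p = 0.0446) and Hsd17b11 (1.58, adjusted p = 0.0446). Plin2 (1.5, limma adjusted p = 0.148), Fitm2 (1.37, adjusted p = 0.141), Cideb (0.50, adjusted p = 0.244) and Fitm1 (1.12, adjusted p = 0.421) did not pass. AlbCre replicate 1 was the lowest AlbCre liver for every tested gene but Fitm1. Leaving it out thus raises those differences by construction, and the calls of this fit are not separate support. Without both livers numbered 1, 0 of the 9 genes passed, and the smallest limma adjusted p was 0.0559, for Cidec. Sample quality weights, which give less weight to libraries that deviate, called the same 5 genes higher with all livers kept, where 2.84% of all genes were. As these weights are estimated from the same values, this is not separate support for the 5 genes. The mean of AlbCre replicates 2 and 3 was 66.2 times the control mean for Cidec, 13.04 times for Plin4, 5.41 times for Plin5 and 1.41 to 2.94 times for the other 6 genes. AlbCre replicate 1 stood at 3.75 times the control mean for Cidec, 2.20 times for Plin4, 2.13 times for Fitm1, 1.65 times for Hsd17b13 and 0.904 to 1.16 times for the other 5.

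**Figure D2:**
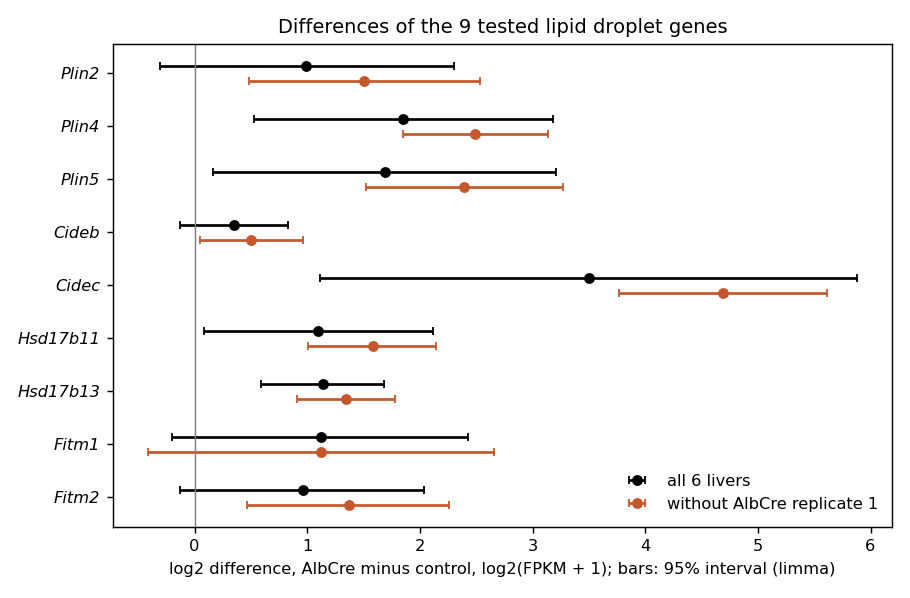
Log2 difference of the 9 tested genes between AlbCre livers and controls on the log2(FPKM + 1) scale, with limma's 95% interval, for all 6 livers (black) and without AlbCre replicate 1 (orange). For Cidec the difference is 3.50 with all livers and 4.69 without that liver, and its interval narrows from 1.11 to 5.88 to 3.77 to 5.61.

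Livers that share a replicate number deviated together across the genes tested, so each was also set against the control of its number. The labels do not state that livers of the same number belong together. As this pairing was chosen from the same data, the values below describe the livers and add no separate support. On this reading every tested gene but Plin2 was higher in every pair, including genes whose groups overlapped, such as Fitm1 and Cideb. The log2 difference within pairs 1, 2 and 3 was 0.94, 0.91 and 1.5 for Fitm1 and 0.34, 0.31 and 0.40 for Cideb. For Hsd17b13 it was 0.83, 1.36 and 1.22, and for Hsd17b11 it was 0.58, 1.35 and 1.37. Cidec differed by 1.18, 5.62 and 3.69 and Plin2 by -0.03, 2.49 and 0.52, so pair 1 had the smallest and pair 2 the largest difference for both. With the replicate number as a block, 0 of the 9 genes passed, with limma adjusted p from 0.15 (Fitm1 and Hsd17b13) to 0.403 (Plin2). At an unadjusted p under 0.05, 7 of the 9 were higher with the block (all but Plin2 and Fitm2), where 10.1% of all genes were.

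**Figure D3:**
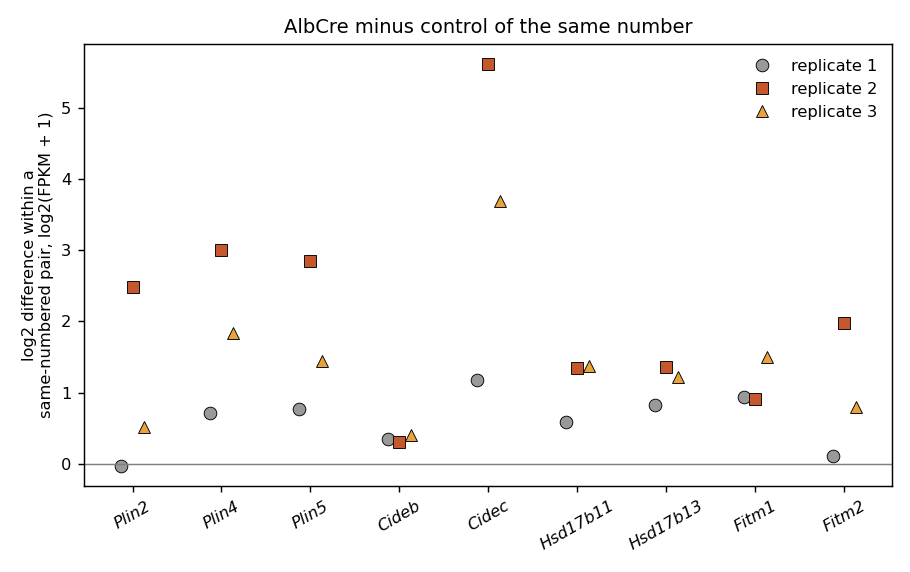
Log2 difference on the log2(FPKM + 1) scale between the AlbCre liver and the control of the same replicate number, for the 9 tested genes. All values are above 0 except that of Plin2 in pair 1 (-0.03), and Cideb differs by 0.31 to 0.40 in the 3 pairs.

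The split between AlbCre replicate 1 and the others was also seen in the mean level of targets of PPARA, the nuclear receptor that drives fatty acid oxidation. Relative to the control mean, the mean log2 level of 25 tested PPARA targets was -0.18, 2.01 and 1.95 in AlbCre replicates 1, 2 and 3, and that of the 9 droplet genes was 0.45, 1.95 and 1.83. In control replicates 1, 2 and 3 the PPARA targets averaged -0.44, -0.16 and 0.59 and the droplet genes -0.15, -0.26 and 0.41. Of the 25 targets, 0 passed with all livers and 5 were higher at an unadjusted p under 0.05 (Fgf21, Pdk4, Cd36, Ehhadh and Acaa1b), where 6.34% of all genes were. The targets of smallest p were Fgf21, a fasting hormone gene (2.14 ± 0.753 FPKM in controls, 32.1 ± 34.6 FPKM in AlbCre livers), Pdk4, a kinase that restrains glucose oxidation (4.41 ± 1.72 against 23.3 ± 20.6 FPKM), and Cd36, a fatty acid transporter (42.2 ± 26.6 against 112 ± 32.6 FPKM). In these 3 genes AlbCre replicate 1 also lay above every control, at 5.64, 8.20 and 91.1 FPKM. For Cd36 it was near AlbCre replicate 2 (95.1 FPKM). Only these 3 of the 25 targets were higher without overlap, where 10.7% of all genes tested were. Without AlbCre replicate 1, 5 targets were called higher (Ehhadh, Hadha, Hadhb, Fgf21 and Acot2), where 0.711% of all genes were. For each of these 5 the liver left out was the lowest AlbCre liver. The part of these genes in the droplet result was not tested.

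**Figure D4:**
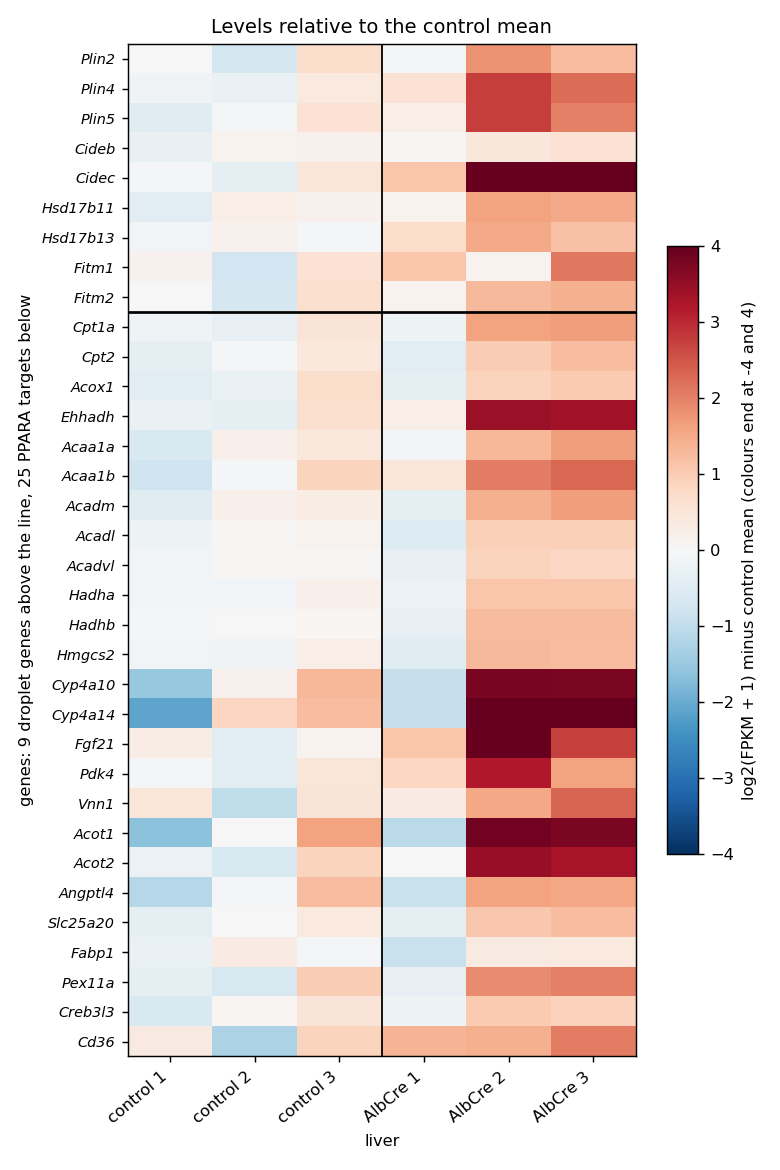
Log2(FPKM + 1) of the 9 tested droplet genes (above the line) and 25 PPARA targets (below it) in each liver, minus the control mean of the gene; red is higher and blue lower, with colours ending at -4 and 4. AlbCre replicates 2 and 3 are red in nearly all genes of both groups, and AlbCre replicate 1 is close to the controls for most.

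Cidec and Plin5 had the largest SD of log2(FPKM + 1) over the 6 libraries (2.36 and 1.27), with Plin4 next at 1.26; in the ratio of the highest to the lowest library Plin4 (28.9) exceeded Plin5 (10.3). The genes closest to Cidec and Plin5 were found by the root mean square difference of centred log2(FPKM + 1) levels over the 6 libraries. For Cidec they were Fgf21 (0.58), Ehhadh of peroxisomal oxidation (0.66), the acyl-CoA thioesterase gene Acot2 (0.70), the immediate early nuclear receptor gene Nr4a1 (0.76) and the laminin subunit gene Lamb3 (0.77). Nr4a1 was at 1.94, 0.739 and 0.684 FPKM in the controls and 5.11, 51.8 and 11.4 FPKM in the AlbCre livers, so it shared with Cidec its peak in AlbCre replicate 2. For Plin5 they were the lysolipid transporter gene Mfsd2a (0.21), Plin4 (0.22), Cpt1b, the muscle isoform of the carnitine acyltransferase (0.24), Cyp4a31, of a multigene family whose counts are uncertain (0.24), and the mitochondrial carrier gene Slc25a47 (0.32). Mfsd2a was at 19.6, 36.4 and 66.1 FPKM in the controls and 45.8, 217 and 144 FPKM in the others.

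Other genes of droplet proteins and of the enzymes that act on droplets did not share one direction. Of 42 symbols listed for such genes, 40 were found in the table and 39 were tested. Other symbols of the same genes were not searched, so Ldaf1 and Gpat4 may be listed under another name. Of the 39, 21 had higher and 18 lower means, with a median log2 difference of 0.02. None passed, and 5 were higher (Sqstm1, Pnpla2, Hilpda, Dgat1 and Agpat3) and 1 lower (Dgat2) at an unadjusted p under 0.05, where 6.34% and 3.59% of all genes were. Sqstm1, which encodes the autophagy receptor p62, was at 211 ± 14.8 FPKM in controls and 341 ± 22.3 FPKM in AlbCre livers (limma adjusted p = 0.272). Dgat2, which makes triglyceride, was at 349 ± 38.2 against 190.5 ± 42.1 FPKM (limma adjusted p = 0.317). Pnpla2, which encodes the first lipase of droplet breakdown, was at 23.6, 25.4 and 26.7 FPKM in the controls and 32.0, 72.7 and 62.1 FPKM in the others (limma adjusted p = 0.386). For these 3 genes, named for their small p, the groups did not overlap. Of the 39 genes, 5 were higher and 2 lower without overlap, where 1177 and 609 of all 10963 genes tested were.

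Among the remaining perilipins, Plin1 was listed at 0 in every library and Plin3 was at 29.4, 24.4 and 20.5 FPKM in the controls and 40.5, 25.4 and 22.6 FPKM in the AlbCre livers. Plin3, which coats nascent droplets in many tissues, thus had its highest value in AlbCre replicate 1, unlike Plin2, Plin4 and Plin5. G0s2, whose protein inhibits the lipase encoded by Pnpla2, was at 100.1, 54.5 and 325 FPKM against 65.5, 398 and 294 FPKM. Abhd5, whose protein activates that lipase, was at 15.2, 9.58 and 9.71 FPKM against 17.0, 8.41 and 10.3 FPKM. The log2 differences of both had intervals that included 0 (-1.38 to 2.78 for G0s2 and -0.67 to 0.71 for Abhd5). Bscl2, which encodes seipin of the droplet assembly site, was at 26.3, 30.0 and 32.4 FPKM against 33.2, 37.0 and 41.3 FPKM, without overlap by a narrow margin (limma adjusted p = 0.506). Without AlbCre replicate 1, 3 of the 39 were called higher (Pnpla2, Mgll and Agpat3) and 3 lower, the sterol synthesis genes Nsdhl, Lss and Sqle. Of all 10963 genes tested, 78 (0.711%) were called higher and 75 lower in that fit. For the 3 higher genes the liver left out was the lowest AlbCre liver, and for the 3 lower genes the highest. Plin3, G0s2, Abhd5 and Bscl2 were chosen after their values were seen.

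**Figure D5:**
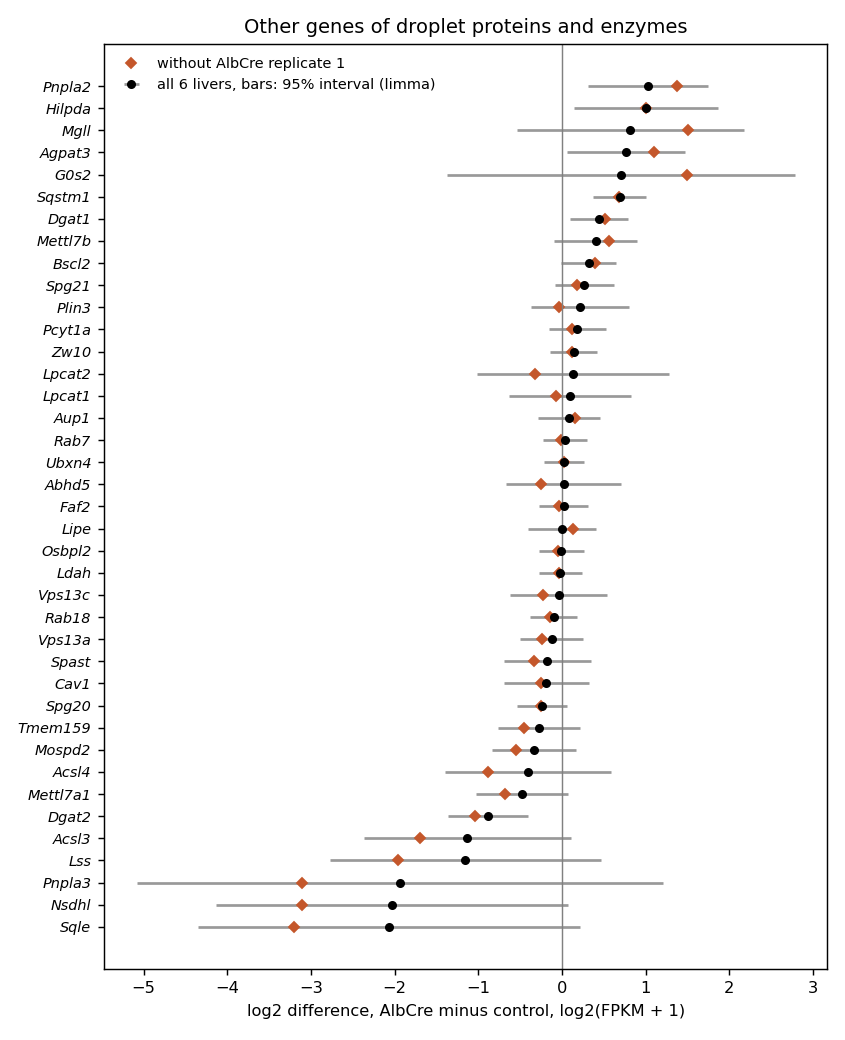
Log2 difference of 39 other droplet genes on the log2(FPKM + 1) scale, AlbCre livers minus controls, with limma's 95% interval (black and grey), and the same without AlbCre replicate 1 (orange diamonds). Of the 39 genes 21 lie above 0 and 18 below, from Pnpla2 at the top (1.03) to Sqle at the bottom (-2.07).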

How the data were processed

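Poly(A) RNA of 3 control livers and 3 AlbCre livers was sequenced single-end from directional libraries, per the labels' protocols. The build was mm10 and STAR was among the tools, per the submitters' processing notes; its settings, the annotation, the counting method and the use of strand are items not given in the sources used here. Deposited by the authors were FPKM values for each gene symbol, with a column for each library; the table names no unit, and FPKM was inferred from its values. Read totals were estimated from steps between low values of genes with 1 transcript over 1500 bases. At the totals chosen, 60.7 to 64.9% of these values fell no more than 0.05 from a whole read. Each total was picked to make this share largest. The 10% by chance holds for a total fixed in advance and is not the chance level of a picked one. Reads per gene were not recovered and no count test was run.

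Differences were fitted with limma 3.58.1 (R 4.3.3) with an intensity trend on log2(FPKM + 1), which understates the change of low genes; the script was tested on simulated data. All 10 members were named, and from the lists of other droplet genes and PPARA targets the genes that passed or, failing that, up to 3 of smallest p. Marker lists were given as counts and summed levels, and genes named from them were chosen after their values were seen. Members, lists and tests were chosen with earlier results of these data known. The labels' replicate numbers were taken to pair the livers, since deviations from the group means correlated at 0.477, 0.279 and 0.283 for numbers 1, 2 and 3. For livers of unlike numbers the correlations ran from -0.384 to 0.12. Centring within a group of 3 ties these values to each other, and the pairing was chosen from the data it was then used on. Gene coordinates are from GENCODE M21 (GRCm38).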

Additional observations from a re-analysis of the deposited data

How the results depend on the processing

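All 9 tested droplet genes kept a higher mean in the AlbCre livers under each of the 16 alternatives that could be run on them; Plin4 and Cidec were not tested with a filter at 5 FPKM. The number of droplet genes called was 0 except with sample quality weights and without AlbCre replicate 1, where it was 5 and the genes were Plin4, Plin5, Cidec, Hsd17b11 and Hsd17b13 in both. With one liver left out it ranged from 0 to 5, while the genes called higher ranged from 1 to 78 and those called lower from 1 to 75. Sample quality weights called 311 genes higher and 226 lower, the filter at 5 FPKM called 1 lower, and leaving out both livers numbered 1 called 16 higher and 16 lower. Leaving out both livers numbered 2, or both numbered 3, called 3 higher. The replicate block left the calls at 1 higher and 2 lower and changed no call of a droplet gene; it raised the genes at an unadjusted p under 0.05 from 695 to 1107 higher and from 394 to 666 lower. The cause of these differences was not tested. Depth limits Cidea, whose values rest on few reads.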

Other observations

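Cell type markers varied between livers within the groups. Relative to the control mean, 12 macrophage markers averaged 0.72, -1.36 and 0.63 on the log2 scale in control replicates 1, 2 and 3 and 1.19, -0.33 and 0.35 in the AlbCre livers, with summed levels of 163 to 716 and 327 to 1109 FPKM. The 10 stellate cell markers averaged 0.47, -0.42 and -0.05 in the controls and 0.98, -0.08 and -0.12 in the others, with sums of 153 to 223 and 136 to 247 FPKM. AlbCre replicate 1 was the highest library for both lists, and the part of this in the droplet values was not tested. Of the 10 stellate markers, 7 had a higher and 3 a lower mean in the AlbCre livers. At an unadjusted p under 0.05, Acta2 alone was higher and 0 were lower, where 6.34% and 3.59% of all genes were. Acta2 was at 0.740 ± 0.511 FPKM in controls and 2.40 ± 1.14 FPKM in AlbCre livers (limma adjusted p = 0.423). Of 11 tested hepatocyte markers, 1 was higher (Pck1) and 3 were lower (Serpina1c, Ttr and Fgb) at an unadjusted p under 0.05. Of all genes tested, 6.34% were higher and 3.59% lower, and 0 of the 11 markers passed. Serpina1c, of a gene family with near-identical copies, was at 1169 ± 62.0 FPKM in controls and 633 ± 56.3 FPKM in AlbCre livers (limma adjusted p = 0.235). Car3, a carbonic anhydrase gene, was at 594, 1018 and 1217 FPKM in the controls and 365, 68.9 and 366 FPKM in the others (limma adjusted p = 0.429). Xist was at 34.6 to 56.3 FPKM in all 6 libraries, and of 4 Y-linked genes 3 were listed at 0 throughout and Eif2s3y was at most 0.0795 FPKM.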
